A study of Mus musculus with 30 samples.

Results

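Pre-B cells of mice with 1 changed copy of Ikzf3 (het) were compared with pre-B cells of wild-type mice (WT), all gene by gene. The change is G158R, a substitution in the zinc finger transcription factor Aiolos, which Ikzf3 encodes. The comparison uses 6 RNA libraries, 3 het (genotype Ikzf3+/m) and 3 WT (Ikzf3+/+), out of 18 RNA libraries and 30 samples in the series. The mice were of the C57BL/6 strain, and the labels give neither their age nor how the substitution was introduced. Bone marrow cells enriched for B220 were sorted as B220+ AA4.1+ IgM- CD43- CD24+ for the pre-B stage and as B220+ AA4.1+ IgM- CD43+ CD24- for the earlier pre-pro B stage, and poly(A) RNA was sequenced. The other groups used beside this comparison were pre-B cells with both copies changed (homo, Ikzf3m/m) and WT and het pre-pro B cells, 3 libraries each. The labels do not say that the libraries of a group came from separate mice, so p-values measure only the spread between these samples.

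Aiolos and its relative Ikaros, encoded by Ikzf1, bind DNA through zinc fingers at sites with a GGGAA core, and they act as dimers within the family. In B cell development, large cycling pre-B cells that carry a surrogate light chain with the heavy chain (the pre-B cell receptor) leave the cycle, switch on Ikzf3 and rearrange their light chain genes. Ikaros family factors are known in pre-B cells for silencing surrogate light chain genes and genes that couple the cells to stroma and growth signals.

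Promoter sequence is shown for 4 genes that changed in het pre-B cells and lie near a region of Ikaros binding measured in the same study. Prdm1 and Cd22 were higher in het cells, and Arhgef39 and Pik3ap1 were lower. Each line gives the 250 bases before the RefSeq transcription start, 5′ to 3′ on the strand of the gene (minus for all 4), from RefSeq on GRCm38.p6. Capitals mark the 5-base core GGGAA or its reverse complement TTCCC, and the Cd22 line holds GGGAA in direct succession. The windows are chr10:44458749-44458998 for Prdm1, chr4:43508748-43508997 for Arhgef39, chr7:30879029-30879278 for Cd22 and chr19:41385103-41385352 for Pik3ap1. The windows of Prdm1 and Cd22 lie inside the extent of their RefSeq genes, and those of Arhgef39 and Pik3ap1 directly before them.
Prdm1: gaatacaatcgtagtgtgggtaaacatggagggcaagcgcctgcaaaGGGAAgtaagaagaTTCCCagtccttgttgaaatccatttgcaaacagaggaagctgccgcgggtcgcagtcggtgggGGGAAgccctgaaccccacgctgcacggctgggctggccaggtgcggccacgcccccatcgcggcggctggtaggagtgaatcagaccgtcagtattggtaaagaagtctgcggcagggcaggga
Arhgef39: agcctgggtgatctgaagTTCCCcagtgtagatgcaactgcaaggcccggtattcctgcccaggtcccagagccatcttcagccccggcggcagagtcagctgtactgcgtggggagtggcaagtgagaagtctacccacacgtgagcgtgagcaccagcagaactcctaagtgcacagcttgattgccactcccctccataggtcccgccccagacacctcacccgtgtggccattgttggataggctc
Cd22: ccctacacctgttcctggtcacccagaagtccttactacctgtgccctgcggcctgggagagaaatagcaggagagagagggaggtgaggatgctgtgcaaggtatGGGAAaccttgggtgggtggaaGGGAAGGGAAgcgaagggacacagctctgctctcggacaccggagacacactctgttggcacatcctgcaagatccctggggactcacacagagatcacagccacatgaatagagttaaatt
Pik3ap1: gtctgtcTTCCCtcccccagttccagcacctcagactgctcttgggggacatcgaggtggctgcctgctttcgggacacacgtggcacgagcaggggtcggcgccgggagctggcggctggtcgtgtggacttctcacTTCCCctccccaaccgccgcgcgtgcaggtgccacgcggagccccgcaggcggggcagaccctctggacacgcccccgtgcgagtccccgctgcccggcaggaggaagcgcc
The letters matched 3 times in the Prdm1 window, 1 time for Arhgef39, 3 times for Cd22 and 2 times for Pik3ap1. At least 1 match on either strand was held by 56.0% of all 27024 RefSeq promoter windows of this length and by 58.3% of the 9196 that belong to tested genes. The share was 56.2% of 260 windows for genes called higher in het cells and 60.6% of 307 for genes called lower, so the letters were about as frequent there as in promoters at large.

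The 6 libraries held 4265056 to 6757040 counts in genes, with het replicate 2 the shallowest, and 32.5% to 40.9% of counts fell in entries that name no gene, the highest share again in het replicate 2. The balance of Xist and Y-linked counts put het replicate 2 among XY libraries and the other 5 among XX libraries, so sex and depth cannot be told apart in that library. The first principal component of the 6 libraries held 63% of the variance and placed WT at -29.3, -27.1 and -25.2 and het at 23.8, 48.6 and 9.3. Het replicates stood farther from each other than WT replicates, with a chi-square per degree of freedom of 6.21 to 20.2 between het pairs and 1.44 to 2.52 between WT pairs. Actb had 2009 to 2506 counts in the 6 libraries, a narrower range than that of depth, and fold changes of abundant genes are less certain for that reason. Defining pre-B genes were present in every library: Cd79b lay at 275 to 297 CPM (counts scaled to library size with TMM normalisation) in WT and 263 to 375 in het, and Rag1 at 984 to 1120 and 1120 to 1370. Of markers of other cells, Cd3g, Gzmb, Elane, Hba-a1 and Hbb-bt were at 0 in all 6 libraries. Other such markers had counts, among them Tyrobp (188 in WT and 379 in het), Itgam (946 and 1522) and Lyz2 (35 and 24). The genes at 0 therefore do not measure how pure the sorted cells were.

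In het pre-B cells, 319 genes were higher and 386 lower than in WT among 11411 genes tested. The 705 calls are 6.18% of the genes tested (2.8% higher and 3.38% lower) by edgeR's quasi-likelihood test at a Benjamini-Hochberg adjusted p under 0.05. Changes of at least 1 on the log2 scale were seen for 174 genes called higher and 280 called lower, and changes of at least 2 for 56 and 87. The median absolute log2 fold change of the called genes was 1.22, and the median log2 fold change of all genes tested was 0.00537. For 704 of the 705 genes the 3 het levels did not overlap the 3 WT levels, which was the case for 33.2% of all genes tested. The exception was Thbs1, encoding the matrix protein thrombospondin 1, named here after its values were seen: it had 0.477, 1.07 and 0.963 CPM in WT and 5.26, 0.975 and 7.63 CPM in het, so that het replicate 2 lay at the WT level. Its call was lost without any WT replicate, het replicate 1 or 3 or homo replicate 1 or 2 (edgeR adjusted p up to 0.174). Each of the 705 genes kept its direction in every alternative setting that tested it. The settings use these same libraries or a part of them, so for called genes a kept direction is largely built in. The number of calls depended on the libraries in the fit, which pools the spread of the 9 pre-B libraries: it was 336, 341 and 338 without WT replicate 1, 2 or 3, 355 without het replicate 1, and 1377 without homo replicate 3, a library of 1888871 counts. With the 5 XX libraries of WT and het and the 1 of homo alone it was 1689, a setting chosen after seeing the data.

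**Figure D1:**
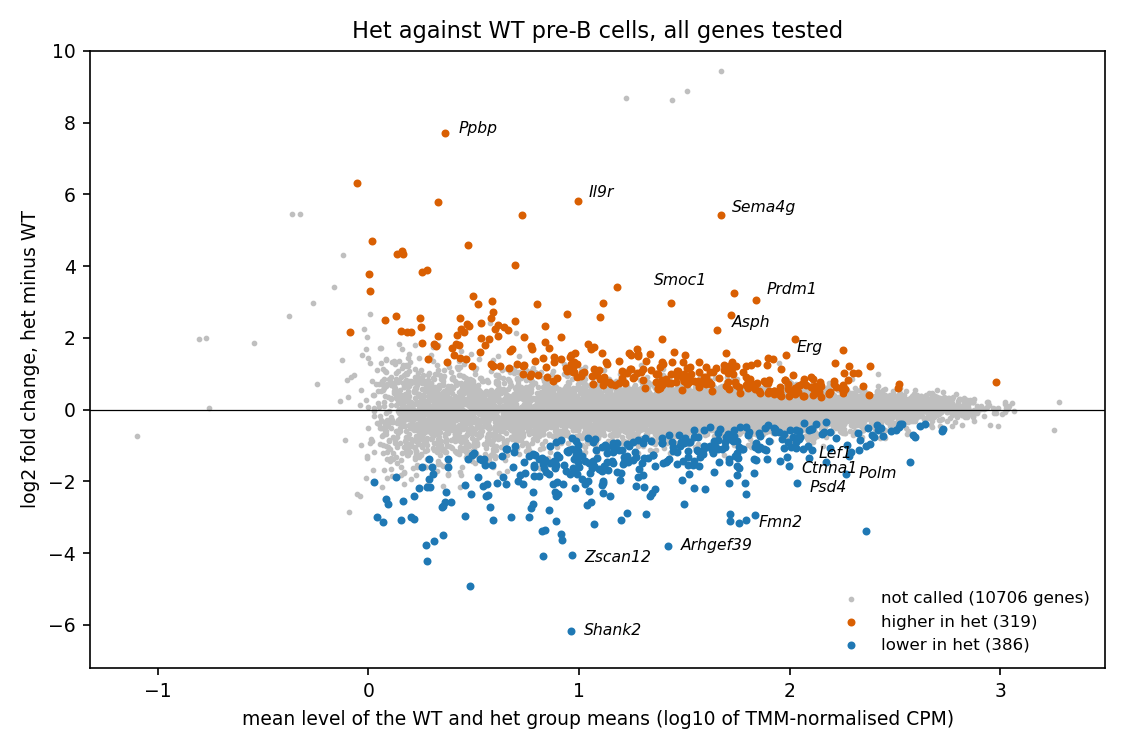
All 11411 genes tested, with the level (log10 of the mean of the WT and het group means, in CPM) on the horizontal axis and the log2 fold change of het minus WT on the vertical axis. The 319 genes called higher are orange, the 386 called lower blue and the rest grey, with the named genes beside their points. The 4 grey points above 8 at the top are the Y-linked genes, read in het replicate 2.

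Prdm1, Smoc1, Arhgef39 and Lef1 are the genes given as markers of this comparison, and earlier results had shown that they changed. Prdm1 encodes Blimp-1, the repressor that drives plasma cell differentiation. It stood at 15.7, 15.3 and 13.3 CPM in the WT libraries and at 112, 126 and 133 CPM in the het libraries. Every het library was above 100 and every WT library below 20, and the log2 fold change was 3.06 ± 0.19 (SE; edgeR adjusted p = 5.98e-05), an 8.34-fold rise. Smoc1, encoding a secreted calcium-binding matricellular protein, had 14.5, 6.6 and 9.63 CPM in WT and 108, 70.9 and 116 CPM in het. The groups were far apart, with a log2 fold change of 3.26 ± 0.28 (edgeR adjusted p = 0.000233), a 9.58-fold rise. Arhgef39, encoding a guanine nucleotide exchange factor, went the other way. It had 47.2, 49.4 and 52.3 CPM in WT and 4.64, 3.17 and 2.73 CPM in het, so that every het library was far below every WT library. Its log2 fold change was -3.80 ± 0.32 (edgeR adjusted p = 0.000222), a 14-fold fall. Lef1, encoding a nuclear partner of beta-catenin that is high in early B cells, had 144, 156 and 187 CPM in WT and 78.9, 84.8 and 79.9 CPM in het. It fell 2.0-fold, with a log2 fold change of -1.003 ± 0.17 (edgeR adjusted p = 0.00761) and het libraries close together. In bulk RNA, fewer cells that express a gene and less RNA per cell cannot be told apart.

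**Figure D2:**
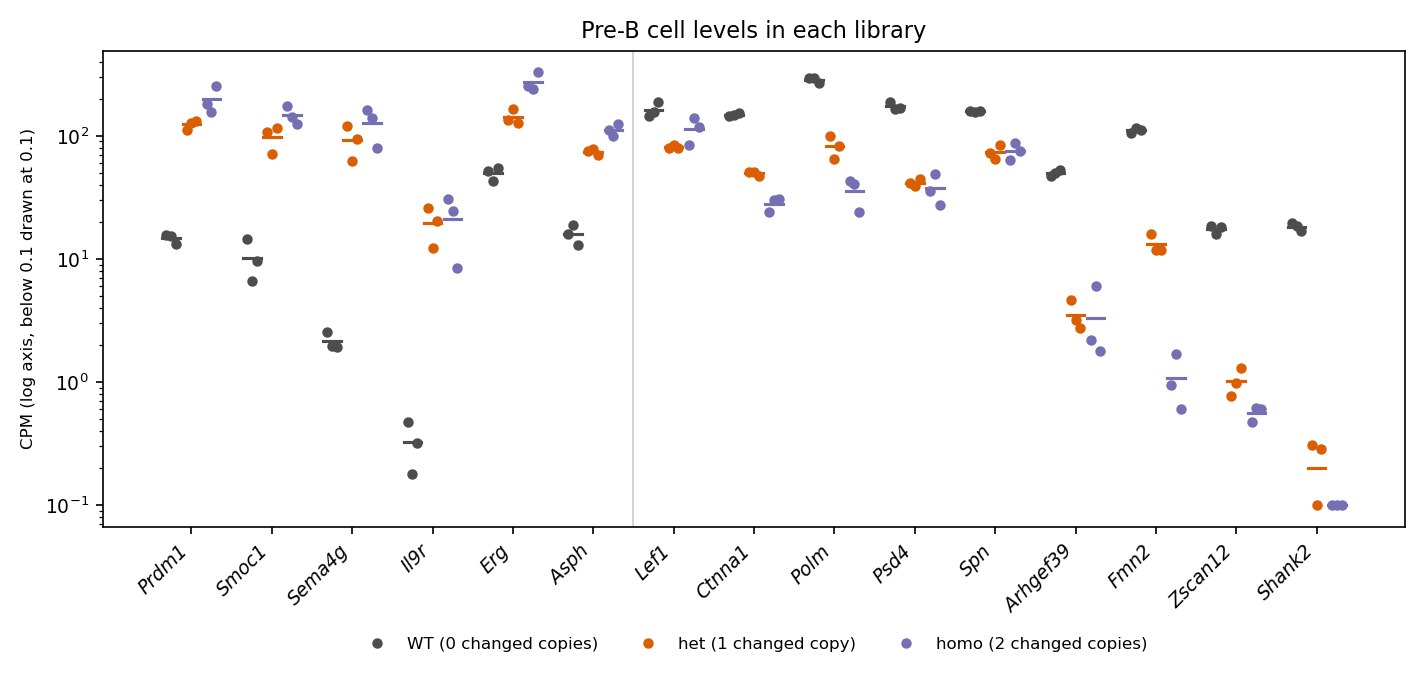
CPM of 15 genes in each pre-B library on a log axis, with points for the 3 libraries of WT (grey), het (orange) and homo (purple) and a bar for the mean; values below 0.1 are drawn at 0.1. Genes called higher in het are left of the vertical line and genes called lower right of it, and in each gene the 3 het points lie apart from the 3 WT points.

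The Ikaros family genes themselves were not called. Ikzf3 had 545, 549 and 517 CPM in WT and 514, 599 and 493 CPM in het, overlapping groups with a log2 fold change of 0.00 ± 0.14 (edgeR adjusted p = 0.992). Counts per gene do not tell the changed from the unchanged copy, so these levels do not check the genotype. Ikzf1 had a mean of 781 ± 27.7 CPM (SD, n = 3, as for all means below) in WT and 839 ± 97.3 in het, with an edgeR adjusted p of 0.796. Ikzf5 had 73.9 ± 4.08 and 79.6 ± 6.34 CPM, and Ikzf2, encoding Helios, was at 1.59 ± 0.339 and 1.43 ± 0.713 CPM. Ikzf4 was too low to be tested. The signs of the differences for Ikzf1, Ikzf2 and Ikzf3 changed between settings.

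Sema4g, encoding a membrane semaphorin, and Il9r, encoding the interleukin 9 receptor, a relative of the IL-7 receptor, were among the genes with the largest rises. Sema4g had 2.54, 1.96 and 1.93 CPM in WT and 120, 62.7 and 93.7 CPM in het, and every het library was above 60. It rose 42.6-fold, with a log2 fold change of 5.41 ± 0.38 (edgeR adjusted p = 0.000101). Il9r had 0.477, 0.178 and 0.321 CPM in WT and 26.1, 12.2 and 20.3 CPM in het, a 56.1-fold rise with the het libraries spread about their mean of 19.5. Kcnj1, a potassium channel gene, rose from 0.218 ± 0.241 to 10.5 ± 3.42 CPM, and Ak8, an adenylate kinase gene, from 0.552 ± 0.243 to 9.38 ± 0.642 CPM. Slc47a1, encoding a transporter that exports organic cations, rose from 0.219 ± 0.0885 to 5.7 ± 0.718 CPM.

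The other 7 of the 12 largest rises began from 0 to 3 counts over the WT group. Ppbp, a platelet chemokine gene, and Ptn, encoding the growth factor pleiotrophin, had no count in WT. Set against 3 pooled counts as the floor, Ppbp was at least 27.9-fold higher in het and Ptn at least 10.7-fold higher. Ppbp had 3.87, 4.88 and 5.18 CPM in het and Ptn 1.7, 1.71 and 1.87. The remaining 5 genes had 1 to 3 WT counts, and their het to WT ratio was taken from summed counts with a 95% interval that covers counting error only. The ratio was 76.6 (13.3 to 3060) for C4bp, encoding a complement regulator, 36.2 (6.09 to 1470) for Pamr1, 25.9 (6.8 to 220) for D6Ertd527e, 23.8 (6.22 to 202) for Shroom2, an actin-binding protein gene, and 23.3 (6.08 to 198) for Pcp4, a calmodulin-binding protein gene. The call of Pcp4 was lost without WT replicate 1, 2 or 3 or het replicate 1 or 2, with edgeR adjusted p up to 0.133, and with a sex term. These genes were at low levels in het cells as well, with 6.8 CPM for C4bp in het replicate 1 the highest value.

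Shank2, encoding a scaffold protein, had the largest fall. It had 19.4, 18.4 and 16.7 CPM in WT and 0.309, 0 and 0.288 CPM in het, and the log2 fold change was -6.19 ± 0.39 (edgeR adjusted p = 0.000222). Zscan12, a zinc finger gene, had 18.4, 15.9 and 18.1 CPM in WT and 0.773, 0.975 and 1.3 CPM in het, a 16.7-fold fall (log2 -4.06 ± 0.24, edgeR adjusted p = 5.98e-05). Il6ra, encoding the interleukin 6 receptor, fell from 12.2 ± 1.14 to 1.17 ± 0.713 CPM, and Mrgpre, a G protein-coupled receptor gene, from 12.8 ± 0.574 to 0.697 ± 0.525. Both were near or below 1 CPM in het cells. A430105I19Rik fell from 15.1 ± 2.41 to 1.29 ± 0.562 CPM and Tmem191c from 15.5 ± 4.6 to 1.1 ± 1.18. Lower still in WT were Bmp1, encoding a procollagen protease, which fell from 3.47 ± 0.228 to 0.262 ± 0.195 CPM, and Foxi1, a forkhead factor gene, which fell from 3.84 ± 1.27 to 0.251 ± 0.234. Plekhg1 fell from 4.16 ± 0.714 to 0.362 ± 0.11 CPM. With 3 counts over the het group, Fam101a was 34.5-fold lower (11.5 to 170) and Wnt10b, encoding a Wnt ligand, 21.3-fold lower (6.96 to 106), by the ratio of summed counts and its interval.

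Fmn2 and Spn are named after their values were seen. Fmn2, encoding the actin nucleator formin 2, had the smallest p of all genes: 106, 115 and 111 CPM in WT against 15.8, 11.7 and 11.9 CPM in het (log2 -3.07 ± 0.18, edgeR adjusted p = 5.98e-05). Spn encodes CD43, the antigen whose absence defined the pre-B gate. It lay between 157 and 160 CPM in the WT libraries and at 73.1, 65.1 and 84 CPM in the het libraries, a 2.13-fold fall (log2 -1.09 ± 0.14, edgeR adjusted p = 0.00152). All het levels of Spn were below 100 CPM, and whether the cells inside the gate differed in CD43 on their surface was not measured here. Asph, encoding an aspartate hydroxylase of the endoplasmic reticulum, had 16, 18.9 and 13 CPM in WT and 75.6, 77.5 and 69.4 CPM in het, a 4.64-fold rise (log2 2.21 ± 0.15). Psd4, encoding an exchange factor for Arf6, fell from 174 ± 12.3 to 41.7 ± 2.81 CPM, and P2rx7, encoding an ATP-gated ion channel, rose from 2.35 ± 0.623 to 15.1 ± 2.73.

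Genes were then grouped into 27 lists by role, of which the calls and the median log2 fold change are given beside those of all genes tested, 6.18% called and a median of 0.00537. The median changed sign in 1 to 4 of 19 alternative settings for 8 lists (Ikaros family, plasma cell program, B lineage transcription factors, adhesion, TNF receptors, mature B cell, plasmacytoid dendritic and Notch), and no direction is read from these medians. With 4 to 44 tested members, a share of calls in a list is coarse.

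**Figure D3:**
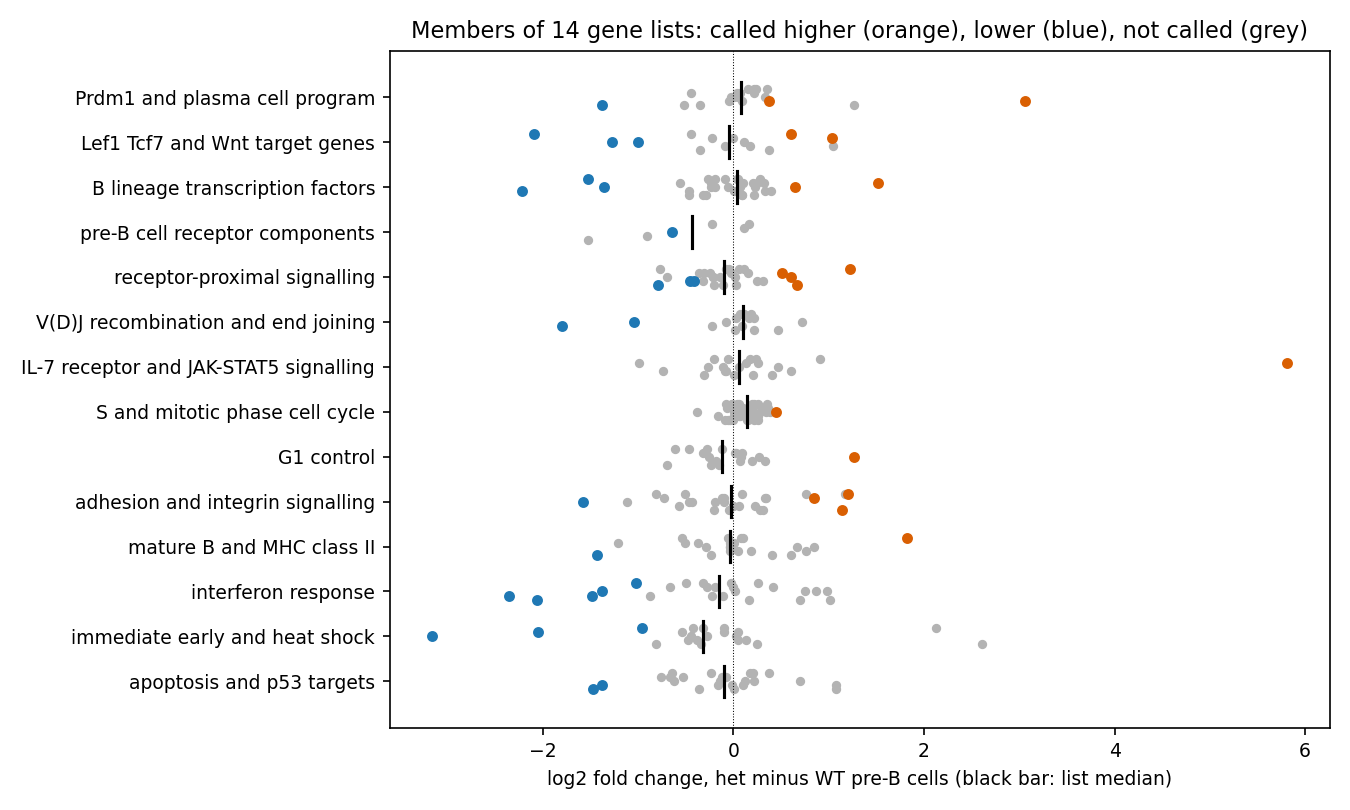
Log2 fold change of het minus WT for each tested member of 14 gene lists, 1 row a list, with members called higher in orange, called lower in blue and not called in grey, and the list median as a black bar. Medians of all 14 lists lie between -0.434 and 0.149, and most members lie near 0.

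Among 20 tested genes of the plasma cell program, Prdm1 and Xbp1 were called higher and Sdc1 lower, and the median was 0.0816. Xbp1, encoding a factor of the unfolded protein response that plasma cells need, had 80.7, 81.5 and 76.4 CPM in WT and 107, 99.5 and 103 CPM in het, a 1.3-fold rise (edgeR adjusted p = 0.0384). Sdc1, encoding the plasma cell antigen CD138, had 108, 96.2 and 90.1 CPM in WT and 35.7, 21.7 and 54.3 CPM in het, a 2.6-fold fall (edgeR adjusted p = 0.0378). Prdm1 and Sdc1 therefore moved in opposite directions. Irf4, which acts upstream of Prdm1 in plasma cells, was at 661 ± 18.4 and 703 ± 76.4 CPM (edgeR adjusted p = 0.816), and Jchain, encoding the joining chain of secreted antibodies, at 3.08 ± 2.04 and 7.7 ± 3.99 (edgeR adjusted p = 0.199). Tnfrsf17, the gene of the plasma cell receptor BCMA, had 1 count over the 3 libraries of each group. The call of Xbp1 was lost when any of 8 libraries was left out (all but homo replicate 3, edgeR adjusted p up to 0.182) or with no count filter, and that of Sdc1 without WT replicate 1, 2 or 3, het replicate 1 or 2 or homo replicate 2 (up to 0.165).

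Of 33 tested B lineage transcription factors, 2 were called higher (Erg and Bcl6) and 3 lower (Id3, Gfi1 and Lmo2). Erg, an ETS factor of early lymphoid cells, had 51.5, 42.8 and 54.9 CPM in WT and 134, 166 and 127 CPM in het, and rose 2.86-fold (log2 1.51 ± 0.16, edgeR adjusted p = 0.000699). Id3, an inhibitor of E protein factors, fell from 37.7 ± 6.9 to 7.97 ± 2.65 CPM. Gfi1, a zinc finger repressor gene, fell from 43.2 ± 5.9 to 15 ± 1.34 CPM, and Lmo2, encoding a LIM adaptor of progenitor cells, from 13.9 ± 0.516 to 5.49 ± 1.33. The factors that define the lineage were not called: Pax5 was at 206 ± 5.91 and 181 ± 4.78 CPM, Ebf1 at 630 ± 9.54 and 763 ± 149, and Foxo1 at 459 ± 14.2 and 578 ± 49.4. Their edgeR adjusted p were 0.27, 0.587 and 0.167. Of 19 alternative settings, 2 called Pax5, 1 called Ebf1 and 3 called Foxo1.

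In the list of Lef1, Tcf7 and Wnt target genes, 3 of 14 tested members were lower (Lef1, Tcf7 and Axin2) and 2 higher, among them Satb1. Axin2, a feedback inhibitor and common readout of Wnt signalling, had 6.99, 7.67 and 7.22 CPM in WT and 1.24, 1.46 and 2.3 CPM in het, a 4.25-fold fall (edgeR adjusted p = 0.00391). Tcf7, encoding the Lef1 relative TCF-1, fell from 11.2 ± 1.83 to 4.5 ± 1.1 CPM. Satb1, encoding a chromatin organiser, rose from 140 ± 12.3 to 212 ± 23.4 CPM. The call of Tcf7 was lost without WT replicate 2 (edgeR adjusted p = 0.0519), and that of Satb1 without any WT replicate, het replicate 1 or 2 or homo replicate 1 (up to 0.173).

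Among 6 tested components of the pre-B cell receptor, Igll1 was the single call, and the median was -0.434. Igll1, encoding the lambda5 part of the surrogate light chain, had 82.5, 87.4 and 91 CPM in WT and 48.7, 57.1 and 61.4 CPM in het, a 1.56-fold fall (edgeR adjusted p = 0.0422). Vpreb1, encoding the other part, had 34.2, 33.2 and 32.6 CPM in WT and 14.1, 15.4 and 23.6 CPM in het, without overlap but not called (edgeR adjusted p = 0.0657). It was called in 8 of 19 alternative settings. Cd79a, a signalling chain of the receptor, was at 160 ± 5.36 and 137 ± 6.71 CPM (edgeR adjusted p = 0.254). Without WT replicate 1, 2 or 3 or het replicate 1 or 2, Igll1 was not called (edgeR adjusted p up to 0.186), nor with a sex term.

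In receptor-proximal signalling, 4 of 28 tested genes were higher (Fyn, Cd22, Bank1 and Rasgrp3) and 3 lower (Pik3ap1, Inpp5d and Lcp2), with a median of -0.0933. Cd22, an inhibitory co-receptor of B cells, had 257, 253 and 262 CPM in WT and 390, 419 and 371 CPM in het, a 1.53-fold rise (edgeR adjusted p = 0.00751). Pik3ap1, encoding the adaptor BCAP that couples the receptor to PI3-kinase, had 379, 397 and 362 CPM in WT and 282, 280 and 295 CPM in het, a 1.33-fold fall (edgeR adjusted p = 0.0295). The 3 het levels of each gene were narrow and apart from WT. Fyn, a Src family kinase gene, rose from 84.6 ± 3.23 to 121 ± 4.21 CPM, and Bank1, a B cell scaffold gene, from 46.5 ± 2.51 to 110 ± 44.8. The kinases Syk (1080 ± 61.6 and 1020 ± 89.6 CPM) and Btk (220 ± 3.1 and 204 ± 18.3) and the adaptor Blnk (293 ± 9.25 and 347 ± 58.4) were not called. Calls of Cd22 and Fyn were lost without WT replicate 1 or 2 (edgeR adjusted p up to 0.0587 and 0.0619). Those of Bank1 and Pik3ap1 were lost without any WT replicate or het replicate 1 or 2 (up to 0.121 and 0.174), and that of Pik3ap1 also without homo replicate 1 or with no count filter.

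Of 16 genes of V(D)J recombination and end joining, Dntt and Polm were lower and none higher. Polm, encoding DNA polymerase mu, which fills gaps during light chain joining, had 297, 294 and 267 CPM in WT and 98.8, 64.6 and 82.5 CPM in het. It fell 3.48-fold (log2 -1.80 ± 0.20, edgeR adjusted p = 0.000714), with every het library below 100. Dntt, encoding terminal transferase, had 102, 81.9 and 93.6 CPM in WT and 32.5, 48 and 54.1 CPM in het, a 2.06-fold fall (edgeR adjusted p = 0.0278) that was not called without WT replicate 1, 2 or 3 or het replicate 1 or 2 (up to 0.119). The recombinase genes were not called: Rag1 was at 1060 ± 68.5 and 1210 ± 140 CPM (edgeR adjusted p = 0.658) and Rag2 at 169 ± 17.7 and 173 ± 38.4 (0.941).

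Il9r was the 1 call among 21 genes of IL-7 receptor and JAK-STAT5 signalling, and Il7r itself was at 492 ± 45.1 CPM in WT and 580 ± 146 in het (edgeR adjusted p = 0.747). Among 44 genes of S and mitotic phase, Tyms was the single call. In this list 35 had a positive log2 fold change, against 5805 of all 11411 genes tested. The median was 0.149 and ranged from 0.0453 to 0.193 over the settings. Tyms, encoding thymidylate synthase, had 47.7, 48.9 and 50.7 CPM in WT and 66.2, 69.2 and 66.1 CPM in het, a 1.37-fold rise (edgeR adjusted p = 0.0321). Mki67, encoding a protein of cycling cells, had 1650, 1850 and 1770 CPM in WT and 1820, 2560 and 1670 CPM in het (edgeR adjusted p = 0.755), with the highest value in the shallow het replicate 2. Without that library its log2 fold change was -0.008. Cdkn1c, encoding the CDK inhibitor p57, was the 1 call of 19 genes of G1 control and rose from 5.35 ± 0.427 to 13 ± 1.91 CPM, and Myc was at 31.4 ± 6.8 and 19.4 ± 1.26 CPM (edgeR adjusted p = 0.19). The call of Tyms was lost without any 1 of the 6 WT and het libraries or homo replicate 1 (edgeR adjusted p up to 0.156), and with no count filter.

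Of 28 tested genes of adhesion and integrin signalling, Itgb3, Ptk2 and Ctnnd1 were higher and Ctnna1 lower. Ctnna1, encoding the alpha-catenin that links cadherins to actin, had 145, 147 and 154 CPM in WT and 51, 51.2 and 46.9 CPM in het, a 2.99-fold fall (log2 -1.58 ± 0.11, edgeR adjusted p = 0.000124) with narrow groups. Ctnnd1, encoding p120 catenin, had 10.8, 10.3 and 11.9 CPM in WT and 26.6, 21.7 and 24.3 CPM in het, a 2.2-fold rise (edgeR adjusted p = 0.00573). The catenins therefore moved in opposite directions. Itgb3, encoding the integrin beta3 chain, rose from 46.3 ± 5.67 to 83 ± 13.3 CPM and Ptk2, encoding focal adhesion kinase, from 3.23 ± 0.568 to 7.57 ± 1.27. Itga6, an integrin gene, was at 114 ± 5.28 and 144 ± 5.76 CPM and was not called (edgeR adjusted p = 0.0769). The call of Ptk2 was lost without any WT replicate or het replicate 1 or 2 (edgeR adjusted p up to 0.133), and that of Itgb3 without any WT replicate, het replicate 1 or 3 or homo replicate 1 (up to 0.182).

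Of 9 tested TNF receptor genes, 2 were lower: Tnfrsf13c, encoding the BAFF receptor of maturing B cells, had 142, 140 and 136 CPM in WT and 75.9, 88.3 and 59.7 CPM in het (1.87-fold, edgeR adjusted p = 0.00839), and Tnfrsf1b fell from 28.3 ± 2.44 to 15.4 ± 2.78 CPM. Among 23 mature B cell and MHC class II genes, Cd86, a costimulatory ligand gene, was higher and Fcer2a, encoding CD23, lower. Cd86 rose from 4.81 ± 0.553 to 17.3 ± 7.47 CPM and Fcer2a fell from 20.9 ± 4.14 to 7.85 ± 2.81, while Ms4a1, encoding CD20, was at 117 ± 21.1 and 126 ± 41 (edgeR adjusted p = 0.866). Of 23 genes of glucose supply and metabolic gatekeepers, Hk1, encoding a hexokinase, fell from 53.6 ± 2.12 to 24.3 ± 7.49 CPM and Cnr2, a cannabinoid receptor gene, from 56.7 ± 12.4 to 30.8 ± 0.313, while the glucose transporter gene Slc2a1 was at 30.8 ± 0.406 and 28.3 ± 3.75 (edgeR adjusted p = 0.713). Calls of Tnfrsf1b and Hk1 were lost without any WT replicate or het replicate 1 or 2 (edgeR adjusted p up to 0.12 and 0.118), that of Cnr2 without WT replicate 1 or 2 or any het replicate (up to 0.127), and that of Fcer2a without WT replicate 1 or 2 or het replicate 1 (up to 0.102).

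Interferon response genes held 5 calls among 24 tested, all lower (Ifit2, Mx1, Mx2, Oas1a and Oas3), with a median of -0.151. Ifit2, an antiviral translation inhibitor gene, had 28.6, 30.3 and 29.1 CPM in WT and 9.43, 9.51 and 12.2 CPM in het, a 2.8-fold fall (edgeR adjusted p = 0.000904). Mx1 and Mx2, encoding antiviral GTPases, fell from 13.4 ± 1.63 to 2.54 ± 1.55 and from 12.3 ± 0.656 to 2.77 ± 1.64 CPM, and Oas3, encoding an enzyme that senses double-stranded RNA, from 4.33 ± 0.653 to 1.61 ± 0.745. Oas3 was not called without any WT replicate, het replicate 2 or 3 or homo replicate 1 (edgeR adjusted p up to 0.155), or with a sex term. Of 21 immediate early and heat shock genes, 3 were lower and none higher, with a median of -0.321. Fos, a subunit of AP-1, had 109, 60.8 and 76.6 CPM in WT and 11, 26.1 and 23.3 CPM in het (4.13-fold, edgeR adjusted p = 0.00494), Fosb fell from 103 ± 32 to 12.1 ± 9.32 CPM and Btg2, an antiproliferative gene, from 319 ± 27.7 to 164 ± 24.8. Of 24 apoptosis and p53 target genes, Bmf, a pro-apoptotic BH3 gene, fell from 218 ± 15.1 to 78.2 ± 23.8 CPM and Zmat3, a p53 target, from 5.03 ± 1.6 to 2.02 ± 0.794, and Bcl2 was at 13.1 ± 1.61 and 14.8 ± 3 (edgeR adjusted p = 0.671). Zmat3 was not called without any WT replicate, het replicate 1 or 3 or homo replicate 1 or 2 (edgeR adjusted p up to 0.191), or by DESeq2. Heyl, a Notch target gene, fell from 18.8 ± 1.8 to 2.99 ± 1.73 CPM and was, with Tcf7, 1 of 2 calls among 14 Notch receptors and targets.

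Some genes best known from other cell types moved as well. Prf1, encoding perforin of cytotoxic cells, had 0.318, 1.25 and 0.321 CPM in WT and 4.64, 5.85 and 6.33 CPM in het (8.89-fold, edgeR adjusted p = 0.00299), and Tyrobp, an adaptor gene of natural killer and myeloid cells, rose from 10.3 ± 0.652 to 21.6 ± 0.505 CPM. The summed level of the 23 natural killer and innate lymphoid genes was 26.4 to 26.6 CPM in WT and 38.8 to 50.5 in het. Without Tyrobp and Prf1 the other 21 summed to 15.3 to 15.7 CPM in WT and 13 to 23.2 in het, ranges that overlap, with 11 higher in mean CPM, 7 lower and 3 without a count. Fcer1g, for example, had 38 counts in WT and 24 in het, while Gzmb was at 0 in all 6 libraries and Gzma had 1 count in all. Itgam, encoding CD11b, rose from 52.3 ± 2.11 to 86.9 ± 5.37 CPM and Ly6c2 from 0.996 ± 0.177 to 5 ± 1.98, and Csf2rb, a cytokine receptor chain gene, fell from 16.5 ± 1.81 to 5.8 ± 0.835. The 24 myeloid genes summed to 160 to 168 CPM in WT and 174 to 181 in het, with Elane at 0. Most of this sum came from Itgam and from Csf2ra, which went the other way. Csf2ra was at 74.8 to 79.2 CPM in WT and 58.7 to 62.4 in het. The sum without Itgam was not taken, so no rise of the other members is read from it. Cox6a2, a muscle-type respiratory subunit gene that also marks plasmacytoid dendritic cells, rose from 7.67 ± 0.679 to 19.3 ± 3.09 CPM. The 26 genes of that list summed to 1850 to 1890 CPM in WT and 1780 to 2240 in het. The largest part came from Zeb2, at 484 to 524 CPM in WT and 472 to 754 in het. T lineage genes summed to 123 to 133 and 108 to 118 CPM, with Cd3g at 0. Most of this came from Cd2, at 91.2 to 101 CPM in WT and 92.6 to 98 in het, so the sum says little about the other members. Erythroid and megakaryocyte genes summed to 67.4 to 69.2 and 49.5 to 59.6 CPM, most of it from Car2, a carbonic anhydrase gene, at 64.9 ± 2.01 and 43.7 ± 2.78 CPM (edgeR adjusted p = 0.145). Without Car2 the other 17 summed to 2.73 to 4.77 CPM in WT and 9.02 to 14.7 in het, and without Ppbp as well to 2.73 to 4.77 and 4.14 to 9.5. Ppbp was the 1 call, and the median log2 fold change of the 5 members tested was 1.69, also with Ppbp at its lower bound. Of other platelet lineage genes, Itga2b had 13 counts in WT and 43 in het, Vwf 2 and 25, and Pf4 0 and 6, and neither Itga2b nor Vwf was called (edgeR adjusted p = 0.19 and 0.16). Car2 (lower) was called without homo replicate 1 or with only the WT and het libraries, Vwf (higher) without homo replicate 3, and all 3 with library size as a covariate or in XX libraries alone. The globin genes Hba-a1, Hba-a2, Hbb-bs and Hbb-bt were at 0 in all 6 libraries. Of stromal genes, Alpl, an alkaline phosphatase gene, fell from 78.2 ± 17.7 to 31.6 ± 3.33 CPM and Fn1, encoding fibronectin, rose from 5.45 ± 1.01 to 9.56 ± 1.39. The part of other cells in these differences was not tested. Without any WT replicate or het replicate 1, Tyrobp and Cox6a2 were not called (edgeR adjusted p up to 0.0793 and 0.102), nor was Itgam without WT replicate 1 or 3 (up to 0.0589), Csf2rb without any 1 of the 6 WT and het libraries (up to 0.107) or Fn1 without any WT replicate, het replicate 1 or 2 or homo replicate 1 or 2 (up to 0.199). Fn1 was also not called with a sex term, with no count filter or with only the WT and het libraries.

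At the pre-pro B stage, where Ikzf3 was at 15.9 CPM in WT and 23.9 CPM in het, the het cells differed from WT in 68 of 12188 genes tested (0.558%), with 53 higher (0.435%) and 15 lower (0.123%). Before adjustment, 2505 genes had an edgeR p under 0.05 at that stage, and 2146 of 11411 in pre-B cells. The numbers of calls therefore do not measure how large the het effect was at each stage. Het pre-pro B replicate 2 was an XY library and the WT pre-pro B libraries were XX. How the 68 calls depend on single libraries was not tested. Of the 705 genes called in pre-B cells, 624 were tested in pre-pro B cells, and 359 of them had the same direction. The same share over all genes was not taken, so no likeness of the stages is read from this. The calls shared were 3 in the same direction and 1 in the opposite one, which is 0.641% of the pre-B genes tested at both stages and 5.88% of the pre-pro B calls. These shares lie near those of all genes tested, 0.558% called in pre-pro B and 6.18% in pre-B cells. The test of the difference itself, the het effect in pre-B minus that in pre-pro B cells in a fit of all 18 libraries, called 703 of 12440 genes (5.65%), 230 with a positive and 473 with a negative difference. Of these 703, 9 were too low to be tested within pre-pro B cells and 33 within pre-B cells. Of the 705 pre-B genes, 454 were called in that test. The same WT and het pre-B libraries enter both tests, so a large overlap is built in. Without homo pre-B replicate 3 it called 1161.

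Single genes showed the difference between stages in several forms. Arhgef39 was at 24.6 CPM in WT and 36.4 CPM in het pre-pro B cells, and its het effect was lower in pre-B cells by 4.38 ± 0.39 on the log2 scale (edgeR adjusted p = 2.74e-06). Asph was at 168 and 169 CPM and Ctnna1 at 290.0 and 287 CPM in WT and het pre-pro B cells, and their effects differed by 2.21 and -1.56 (edgeR adjusted p = 2.05e-06 and 8.11e-07). Zscan12, with 15.7 and 16.3 CPM at the earlier stage, differed by -4.12 (edgeR adjusted p = 1.95e-08), Psd4 by -1.98 and P2rx7 by 2.80. Prdm1 was at 2.34 CPM in WT and 4.8 CPM in het pre-pro B cells, a log2 fold change of 1.01 that was not called (edgeR adjusted p = 0.1), and its het effect was larger in pre-B cells by 2.05 (edgeR adjusted p = 0.00355). Lef1 was at 24.4 and 22.7 CPM, and the difference of -0.86 between its effects was not called (edgeR adjusted p = 0.226). Spn was at 435 and 414 CPM in the CD43+ pre-pro B cells, and its effect differed by -1.02 (edgeR adjusted p = 0.00106).

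**Figure D4:**
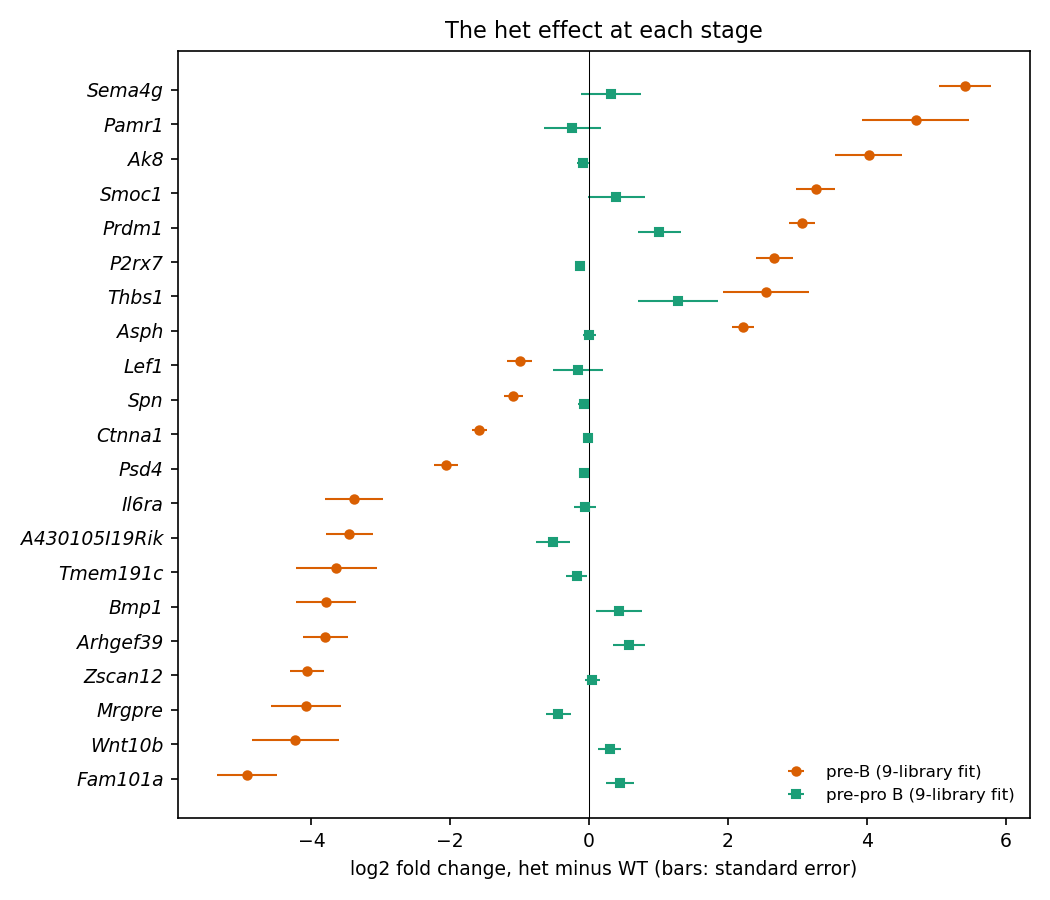
Log2 fold change of het minus WT with its standard error in pre-B cells (orange circles) and in pre-pro B cells (green squares) for 21 genes tested at both stages (marker genes, genes of largest change or smallest interaction p, and genes added after their values were seen). The pre-B values run from -4.93 to 5.41, and the pre-pro B values lie nearer 0. Most of these genes were chosen for a large pre-B change or stage difference, which by itself favours this pattern, so no conclusion is drawn from it.

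Values with both copies changed stand beside these with the same WT libraries as controls. Between homo and het pre-B cells 216 of 11411 genes were called (1.89%), 92 higher and 124 lower in homo, and the number was 123, 122 and 141 without WT replicate 1, 2 or 3, 52 without het replicate 1, 137, 66 and 374 without homo replicate 1, 2 or 3. Some genes stood between WT and homo in het cells. Ctnna1 stood at 149 ± 4.86 (WT), 49.7 ± 2.43 (het) and 28.2 ± 3.52 CPM (homo) (homo minus het log2 -0.83, edgeR adjusted p = 0.0101), Polm at 286, 82 and 35.9 CPM (-1.14, 0.0213), Tnfrsf13c at 139, 74.6 and 24.5 (-1.57, 0.00315) and Erg at 49.7, 142 and 273 (0.94, 0.0166). Fmn2 was at 111, 13.1 and 1.08 CPM (-3.40, 0.00191), Fcer2a at 20.9, 7.85 and 0.209 (-4.71, 0.00446) and Thbs1 at 0.837, 4.62 and 31.7 (2.69, 0.0122). For Prdm1 (14.8 ± 1.29, 124 ± 10.7 and 197 ± 50.1 CPM), Smoc1 (10.2, 98.4 and 147), Arhgef39 (49.6, 3.51 and 3.34) and Spn (157 to 160 in WT, then means of 74.1 and 75.4) the difference of homo from het was not called, with edgeR adjusted p of 0.0848, 0.353, 0.971 and 0.981.

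A different order was seen for Igll1, which stood at 87 ± 4.3 (WT), 55.7 ± 6.47 (het) and 101 ± 20.7 CPM (homo) (homo minus het log2 0.85, edgeR adjusted p = 0.0274). Dntt was at 92.4, 44.9 and 97.7 CPM (1.12, edgeR adjusted p = 0.046) and Tcf7 at 11.2, 4.5 and 9.85 CPM (1.12, edgeR adjusted p = 0.0438), each lowest in het. Slc47a1 was at 0.219, 5.7 and 1.49 CPM (-1.86, edgeR adjusted p = 0.0182), Tyrobp at 10.3, 21.6 and 9.01 (-1.22, edgeR adjusted p = 0.021) and Ly6c2 at 0.996, 5 and 1.54 (-1.77, edgeR adjusted p = 0.0434), each highest in het. Kcnj1 was at 0.218, 10.5 and 2.74 CPM and Lef1 at 163, 81.2 and 113, but for these the difference of homo from het was not called (edgeR adjusted p = 0.0637 and 0.267). The same het libraries enter the het against WT calls and the test of homo against het. For genes called in het, an order with het lowest or highest is therefore partly built in. Homo replicates 1 and 3 were XY libraries. How the homo against het calls of single genes depend on single libraries was not tested.

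Regions of Ikaros and Aiolos binding came from chromatin immunoprecipitation in pre-B cells grown from bone marrow on stromal cells, 1 library per antibody and genotype, from WT and homo mice and none from het mice. The lists held 3683 Ikaros regions in WT and 8609 in homo, and 431 and 24 Aiolos regions. An Ikaros region of WT cells lay within 10 kb of the gene body for 25.7% of genes called higher in het (82 of 319) and 24.9% of those called lower (96 of 385), and for 13.5% of genes not called. With homo regions the shares were 39.8% (127), 45.7% (176) and 29.5%. Called genes were longer, with a median length of 55900 bases for those higher and 27000 for those lower against 22200 for those not called, and the part of length was not tested. Both directions held more genes with a region than the genes not called at 1 kb and 50 kb as well.

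**Figure D5:**
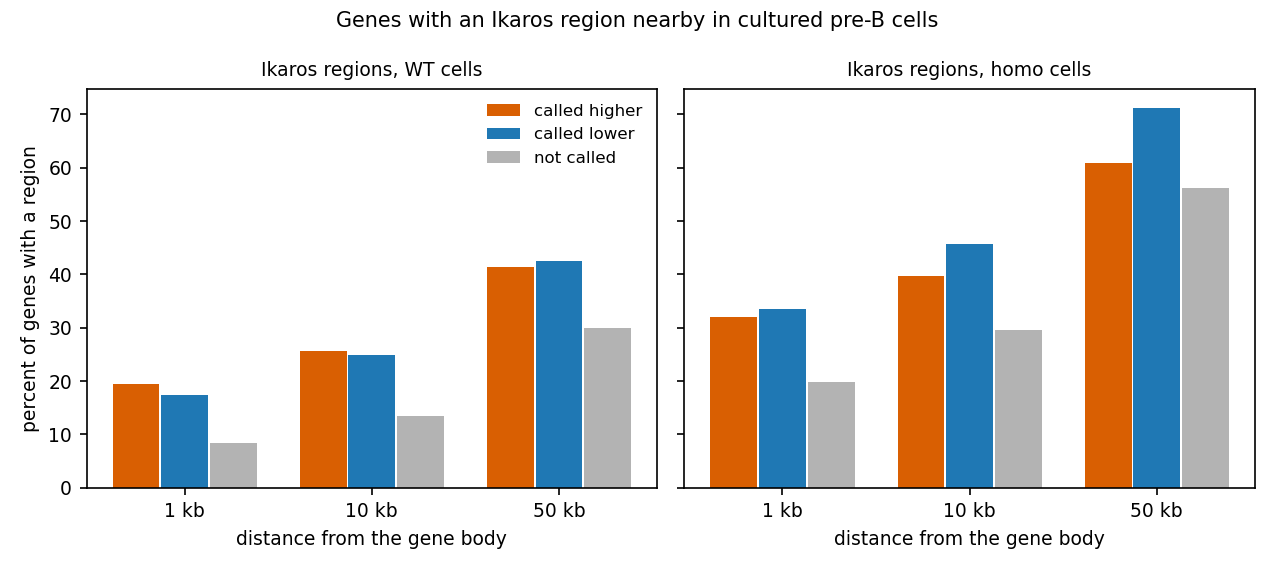
Percent of genes with at least 1 Ikaros region within 1, 10 or 50 kb of the gene body in cultured WT (left) and homo (right) pre-B cells, for genes called higher in het (orange), lower (blue) and not called (grey). At 10 kb with WT regions the bars stand at 25.7%, 24.9% and 13.5%.

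At single genes the regions lay in different places. Cd22, which rose, had a WT region at chr7:30878545-30879313 with a fold of 21.8 over background in the authors' list and a homo region of 18.7 over the same place, which covers its start and the promoter shown above. Pik3ap1, which fell, had no WT region and 2 homo regions. That at chr19:41385109-41385449 (fold 3.5) overlaps its promoter. The other, at chr19:41275858-41276474 (fold 4.73), lies inside the gene, 109 kb after the start. Prdm1 had a homo region at chr10:44467570-44468453 (fold 3.17), 9.26 kb before the start used here and inside the gene, and none in WT. Arhgef39 had a WT region at chr4:43509777-43510025 (fold 3.49), 1.15 kb before its start, and a homo region there (fold 4.2). Axin2 and Wnt10b, which fell, had WT regions 1.89 kb and 2.92 kb before their starts (fold 12.8 and 9.8), and Ifit2 had 3 in WT and 3 in homo, the WT regions between 0.721 and 9.77 kb after its start. Il9r, Zscan12, Dntt and Ctnna1 had no region within 10 kb in either Ikaros list.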

How the data were processed

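The RNA files hold raw read counts per gene symbol, deposited by the authors as 1 file a library, 24459 genes each. Entries that name no gene (32.5% to 40.9% of counts in the 6 libraries) were left out. STAR 2.7.0, HISAT2 2.1.0, MACS2 2.1.1 and build mm10 are listed in the submitters' processing notes, without roles. Whether reads were counted by strand or duplicates removed is not given either, so overlapping and antisense genes and near-identical paralogs are uncertain. The region lists give the authors' fold (a ratio of signal to background) per region and were called per library.

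Tests used edgeR 4.0.16 (R 4.3.3). Low genes were dropped with filterByExpr, libraries scaled with TMM, and robust quasi-likelihood fits made on the 9 pre-B libraries (18 for the stage difference), with Benjamini-Hochberg adjustment over all genes tested. The procedure was checked on simulated counts that had the same spread in every group. That check does not cover the larger spread between the het libraries. Levels are TMM-normalised CPM, and errors of log2 fold changes are standard errors. Alternatives were RLE size factors, DESeq2 1.42.0, count filters, robust estimation, a replicate block, depth and sex terms, other library sets and each library left out. Gene positions came from RefSeq (GRCm38.p6) for 11384 of 11411 genes. Of the promoter windows, 1 per gene was used.

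Members and lists were chosen with earlier results of these data known. Named genes were the 4 markers, Ikzf1 to Ikzf5, the 12 largest called changes in each direction without overlap and with a mean of at least 1 CPM in the higher group, core and up to 4 called members of each list, and the 5 of smallest p in the stage difference; Spn, Fmn2, Thbs1, Car2, Itga2b, Vwf and Fcer1g were added after their values were seen. Same-numbered WT and het libraries did not deviate together (r of -0.048, 0.00284 and -0.221), so replicate numbers were not used as pairs. Thymocyte regions were not used.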

Additional observations from a re-analysis of the deposited data

Results flagged for a closer look

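The effect of 1 changed copy differed between the pre-B and the pre-pro B stage for 703 genes in the test of the difference (edgeR, adjusted p under 0.05). Differences below are the het minus WT log2 fold change in pre-B cells minus that in pre-pro B cells. The genes were named as markers, for a large pre-B change or for a small p in this test. Since the test uses the same pre-B libraries, large differences for genes of large pre-B change are partly built in. Among genes that rose in het pre-B cells, the difference was 2.05 for Prdm1, 2.87 for Smoc1, 5.08 for Sema4g, 4.13 for Ak8, 2.80 for P2rx7 and 2.21 for Asph. Il9r (5.60), Ptn (7.33) and Shroom2 (8.03) were too low to be tested within pre-pro B cells and passed the count filter of the joint fit through their het and homo pre-B counts. Over the WT and het pre-pro B groups Il9r had 11 and 16 counts, Ptn 3 and 2, and Shroom2 4 and 0. The fitted sizes for Ptn and Shroom2, and that for Pamr1 (5), also rest on 0, 2 and 1 counts in WT pre-B cells and depend on the prior count. At the pre-pro B stage Ak8 was at 49.3 CPM in WT and 46.0 in het, and P2rx7 at 167 and 152.

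Among genes that fell in het pre-B cells, the difference was -4.38 for Arhgef39, -3.64 for Mrgpre, -4.12 for Zscan12, -4.24 for Bmp1, -3.46 for Tmem191c, -2.95 for A430105I19Rik, -3.33 for Il6ra, -1.56 for Ctnna1 and -1.98 for Psd4. For Fam101a (-5.40) and Wnt10b (-4.56), with 3 counts each in het pre-B cells, the fitted size depends on the prior count. Plekhg1 (-3.01) was too low to be tested within pre-pro B cells, with 7 counts in WT and 6 in het there. At the pre-pro B stage Il6ra was at 121 CPM in WT and 115 in het, and Wnt10b at 21.3 and 26.3.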

How the results depend on the processing

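All 705 called genes kept their direction in each alternative that tested them, which is largely built in, since the alternatives use the same libraries. Of the 79 called genes given with values, 53 stayed called in all alternatives. Some genes that were not called became called in alternatives. Of 19 settings this was so in 8 for Vpreb1, 5 for Itga6, 3 for Foxo1 and Myc, and 2 for Pax5 and Cd79a. Ebf1, Blnk, Rag1 and Il7r were each called in 1. With a library left out, calls ranged from 336 to 1377 (138 to 616 higher, 195 to 761 lower), stage differences from 469 to 1161 and homo against het from 52 to 374. With the replicate number as a block (replicate block) they were 383 (168 higher, 215 lower), 445 and 71, and none of the 3 WT libraries correlated best with the het library of its number. With library size as a covariate they were 3005 (1506 and 1499), 1055 and 1604. XX libraries alone gave 1689 (772 and 917) and, for homo against het, 551. Only WT and het libraries gave 1141 (492 and 649). Homo against het gave 460 with DESeq2 and 359 with a sex term. The log2 sign of 8 genes that were not called turned: Ikzf1 was -0.018, Irf4 -0.031, Rag2 -0.081, Il7r -0.029, Mki67 -0.044 and Ms4a1 -0.122 with a sex term. With XX libraries Irf4 was -0.005, Rag2 -0.139, Mki67 -0.011 and Ms4a1 -0.174. Rag2 was -0.006 with the library size covariate and Ikzf3 0.001 with only WT and het libraries. With 1 library left out, Ikzf2 ranged from -0.447 to 0.187, Ikzf3 from -0.091 to 0.051, Irf4 from -0.002 to 0.145, Rag2 from -0.135 to 0.183, Mki67 from -0.008 to 0.318 and Ms4a1 from -0.169 to 0.303. The cause was not tested. DESeq2 called 1005, and the higher share stayed within 40.8% to 50.1%. Medians of 19 of 27 lists kept their sign. Depth limits fold changes of genes with 3 or fewer counts over a group.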
